A study of Mus musculus with 4 samples.

Results

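The replication-type histone genes were the 68 genes whose symbol began with Hist1h, Hist2h, Hist3h or Hist4h and whose value was above 0 in at least 1 of 4 lung libraries. They were 68 of the 23282 rows measured and of the 18254 rows with a value above 0 in any library. By the histone that each symbol names they divided into 6 genes for the linker histone H1, 18 for H2A, 19 for H2B, 12 for H3 and 13 for H4. The H2B member Hist3h2bb-ps is annotated as a processed pseudogene. The study crossed treadmill exercise (E) with tumor (T) in male CDF1 mice and measured lung RNA in 1 library for each of the 4 groups. E(-)T(-), the normal control, had neither treatment, and E(+)T(-), the normal exercise group, ran on the treadmill. The cancer control, E(-)T(+), was given cells of the mouse colorectal carcinoma line CT26 by tail vein and did not exercise, and the cancer exercise group, E(+)T(+), received both. All 4 samples were labelled postnatal day 28, which is also the age at which the animals were bought, so it need not be the age at sampling. CT26 cells are mouse cells, so that reads from tumor and host cells cannot be told apart. With 1 library per group there were no replicates, no test between groups was possible, and the number of animals behind a lung library was not stated. For the leg muscle the study used 1 representative animal per group.

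Replication-type histone genes lie in clusters, many as divergent pairs of an H2A and an H2B gene, and are expressed in S phase, when newly copied DNA has to be packed into nucleosomes. Their mRNAs are the ones in animal cells that normally end without a poly(A) tail. The transcript is cut just after a short hairpin, the histone stem-loop, with the help of the stem-loop binding protein SLBP and the U7 snRNP. Some of the genes also make longer, polyadenylated transcripts from a signal further downstream, a form known mainly from cells that have left the cell cycle. The libraries were made with a 3' kit that primes on poly(A) (QuantSeq 3' mRNA-Seq), so a read of a histone gene here stands for RNA that offered a stretch of A to the primer, and the levels are not those of total histone mRNA.

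The stem-loop letters of genes that the results below turn on are shown because they mark the usual end of these mRNAs. The capitals are the stem and the loop, searched as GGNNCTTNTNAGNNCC after the stop codon on the coding strand of each GENCODE M21 transcript (build GRCm38, the mm10 assembly), 5' to 3'.
Hist1h2ap: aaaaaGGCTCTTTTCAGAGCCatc
Hist1h2ac: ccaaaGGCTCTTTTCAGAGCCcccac
Hist2h2aa1: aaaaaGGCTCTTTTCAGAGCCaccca
Hist1h1e: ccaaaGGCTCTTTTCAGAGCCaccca
Hist1h2be: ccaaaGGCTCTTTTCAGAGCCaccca
Hist1h4h: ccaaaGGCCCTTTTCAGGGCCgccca
Hist1h3c: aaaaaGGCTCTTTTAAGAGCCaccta
Their positions were chr13:21833026-21833049 (minus strand) for Hist1h2ap, chr13:23683472-23683497 (minus) for Hist1h2ac, chr3:96246027-96246052 (plus) for Hist2h2aa1, chr13:23621777-23621802 (minus) for Hist1h1e, chr13:23585526-23585551 (minus) for Hist1h2be, chr13:23531453-23531478 (plus) for Hist1h4h and chr13:23745042-23745067 (minus) for Hist1h3c.

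The letters were present in the annotated end of 46 of the 68 members. Anywhere in the sequence, they occurred in 0.355% of 58797 protein-coding transcripts. The form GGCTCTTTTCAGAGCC stood in 26 of them, and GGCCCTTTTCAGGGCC, a form found here in H4 genes, in 7. The annotated transcripts of Hist1h2bc and Hist2h2be, 2 of the 3 H2B genes with the most reads, did not hold the letters. Hist1h2bc (chr13:23684199-23692908, plus strand) is annotated as a spliced transcript of 2 exons that ends well downstream, and Hist2h2be (chr3:96221119-96223738, plus strand) with a 3' UTR of 2192 bases that has the poly(A) signal AATAAA in its last 50 bases. AATAAA stood in the last 50 bases of 15 members, compared with 40.5% of protein-coding transcripts. A 3' UTR of at least 200 bases or a spliced transcript was annotated for 26 members, called long ends below, and the other 42 had short ends. For some of the 42, among them Hist1h2ai, Hist1h2ak and Hist1h1b, the annotated 3' UTR has 0 bases. Such models stop with the coding sequence, so their true end is not known and held no bases to search for the stem-loop. In Hist1h2ap the annotated transcript stops 3 bases after the stem-loop, whereas in Hist1h2ac it runs on for 2010 bases.

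The regions before the gene starts are shown for 2 divergent pairs because in the first the members differed in opposite directions between libraries and in the second both were higher in the cancer control than in the normal control. The RefSeq windows (GRCm38.p6) were shortened to the bases that lie outside every annotated transcript of the pair, and are written 5' to 3' on the minus strand, the coding strand of the H2A gene. Capitals mark the TATA box letters TATAAA, the CCAAT box and the octamer ATTTGCAT that is known from H2B promoters. Each was searched on both strands, so that ATTGG is a CCAAT box and ATGCAAAT an octamer in the other orientation.
Hist1h2ac/Hist1h2bc: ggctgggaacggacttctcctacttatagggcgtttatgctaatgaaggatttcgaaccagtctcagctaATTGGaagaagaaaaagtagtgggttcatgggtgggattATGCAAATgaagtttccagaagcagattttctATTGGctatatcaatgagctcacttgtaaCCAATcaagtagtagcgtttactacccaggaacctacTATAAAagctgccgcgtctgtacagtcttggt
Hist1h2ap/Hist1h2br: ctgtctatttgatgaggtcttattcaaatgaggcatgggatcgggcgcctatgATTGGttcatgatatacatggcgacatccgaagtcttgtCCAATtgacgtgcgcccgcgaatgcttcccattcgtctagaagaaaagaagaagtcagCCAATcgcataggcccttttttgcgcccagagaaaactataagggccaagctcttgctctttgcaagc
The first stretch is chr13:23683960-23684198, 239 bases with 3 CCAAT matches, 1 octamer and 1 TATAAA, and it lies between the starts of Hist1h2ac and Hist1h2bc. The second is chr13:21833508-21833725, 218 bases with 3 CCAAT matches and neither of the other 2 motifs. RefSeq windows, from 250 bases before to 50 bases after the start, were found for 62 of the 68 members, with 2 windows for Hist1h2be, either of which counted. CCAAT occurred in 53 of them (85.5%) against 37.4% of all 32851 windows, TATAAA in 35 (56.5%) against 13.6%, and the octamer in 14 against 1.74% of all windows. CCAAT was found for every H1, H2A, H2B and H3 member with a window and for 3 of 12 H4 members, and the octamer was found only for 7 of 18 H2A and 7 of 16 H2B members. These are matches of letters and not measured binding sites.

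The libraries held 13017450 reads for the normal control, 12780420 for the normal exercise library, 9354501 for the cancer control and 13368042 for the cancer exercise library, as recovered from the deposited values. A count of 0 therefore allowed up to 0.230, 0.235, 0.321 and 0.224 CPM (3 reads) in these libraries, in the order named, for counting error only. Markers of lung epithelium were among the strongest signals in all 4 libraries, Scgb1a1 at 504276, 566791, 106838 and 450636 reads. The cancer control library stood apart from the other 3 in markers of epithelium, endothelium and proliferation. Its summed normalized count over 6 epithelial markers was 147416 against 639349 to 778093 in the others, over 3 endothelial markers 1453 against 10340 to 12217, and over 5 proliferation markers 8456 against 281 to 2986. The cancer exercise library had the highest sum over 7 erythroid markers, 19763 against 587 to 4705 in the others. It was also highest over 7 early neutrophil markers, at 4992 against 182 to 2032. Hemoglobin transcripts took 14.3%, 14.2%, 1.43% and 31.4% of the reads. In addition, 9 genes with a normalized count of at least 500 in the cancer control and no read in the normal control all had reads in the normal exercise library, at 0.642% to 2.18% of their level in the cancer control.

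All 68 members were detected in at least 1 library, at very different depth. Members with at least 1 read numbered 48 in the normal control, 47 in the normal exercise library, 66 in the cancer control and 62 in the cancer exercise library, and 40 had reads in all 4. Reads on members came to 4175, 5446, 13846 and 12070 in that order, or 0.0321%, 0.0426%, 0.148% and 0.0903% of each library. These sums hold both rows of 3 pairs of members with equal values in every library, and with each such pair counted once the reads were 3580, 4878, 13398 and 11100. The mean normalized count over the 4 libraries was at least 50 for 20 members and at least 4 for 47, where 4 is the normalized count that the study used as a minimum and the mean over the libraries was chosen here. Fewer than 10 reads in every library were found for 20 members. No read was found in both libraries without tumor for 13 members, of which 8 were H3 genes, 2 H1, 2 H2B and 1 H4, and for no H2A gene. The reads were concentrated in H2A and, in the libraries without tumor, in H2B. H2A genes held 2312, 2849, 11909 and 10477 reads and H2B genes 1577, 2260, 719 and 832, whereas all 12 H3 genes together held 7, 10, 93 and 48.

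**Figure D1:**
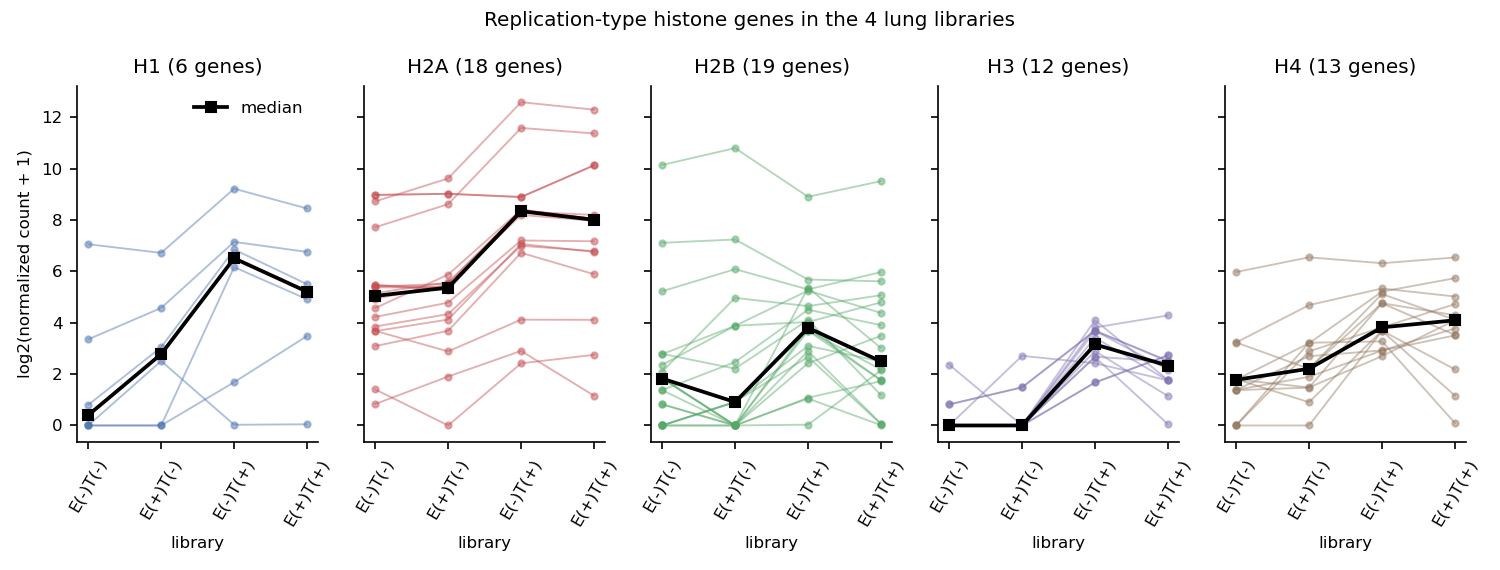
Values of the 68 members on the log2(normalized count + 1) axis in the 4 libraries, 1 panel per histone class, with 1 line per gene and the class median as black squares. The H2A median stood at 5.05, 5.37, 8.35 and 8.01 in the order of the axis, while the 2 H2B genes with the most reads were lower in both tumor libraries.

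In the tumor libraries most of these reads lay on members whose annotated end is short. The 42 short-end members held 2365, 2950, 11907 and 10509 reads, and the 26 long-end members 1810, 2496, 1939 and 1561. With each pair of equal rows counted once the sums were 1771, 2384, 11472 and 9548 for short and 1809, 2494, 1926 and 1552 for long ends, and in both libraries without tumor the short-end sum was then slightly below the long-end sum. Short-end reads were mostly those of Hist1h2ap, Hist1h2ao, Hist2h2aa1 and Hist2h2aa2. Long-end reads were dominated by Hist1h2bc in the libraries without tumor. Where a read was primed, at a poly(A) tail or at an internal run of A, cannot be read from counts per gene.

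The tumor effect without exercise compared E(-)T(+) with E(-)T(-), that is, lungs that had received tumor cells with untreated lungs. Replication-type histone genes were mostly higher in the cancer control, with class medians of the log2 difference between 2.11 for H4 and 2.98 for H1. In summed reads 4 of the 5 classes were higher, and H2B was lower. By 2-fold or more, a difference of at least 1 between log2 values, 57 of 68 members were higher, where 23.6% of all rows were, and 3 were lower, where 24.8% of all rows were. The 13 members with no read in either library without tumor entered the set through the tumor libraries alone and could not be lower, and all 13 are among the 57, which leaves 44 higher and 3 lower of the other 55. Counting in addition only members whose exact 95% interval of the read ratio excluded 0 left 45 higher (17.4% of all rows) and 2 lower (20.5% of all rows). These Clopper-Pearson intervals cover counting error only and not the difference between animals. The median difference of the members was 2.87, against 0.01 over all rows, and 2.24 over the 61 members for which a ratio or a bound could be given. Of the 47 members with a mean normalized count of at least 4, 39 were higher (20.6% of such rows) and 2 lower (25.7%). In bulk lung RNA, more cells of a kind and more RNA per cell cannot be told apart.

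Among H2A genes, which encode a core histone of the nucleosome, Hist1h2ap had the most reads, with 498 in the normal control, 858 in the normal exercise library, 5645 in the cancer control and 4319 in the cancer exercise library. Its log2 values were 8.73, 9.62, 12.60 and 12.30, with both tumor libraries well above both libraries without tumor. The log2 read ratio of the cancer control to the normal control, scaled by library size, was 3.87 (exact interval 3.74 to 4.00). Hist1h2ao, 93.1% of whose 75-base stretches also occur in Hist1h2ap, had 247, 428, 2813 and 2273 reads and a ratio of 3.88 (3.69 to 4.07). Its reads stood in a nearly constant proportion to those of Hist1h2ap, which had 1.90 to 2.02 times as many in each library. RefSeq lists Hist1h2ap as an older symbol of 2 genes, H2ac23 and H2ac24, and Hist1h2ao as one of H2ac23, so the 2 rows may not be independent measurements. The values of each remain uncertain as to which copy the RNA came from.

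A group of 7 further H2A genes in the same cluster, Hist1h2ab, Hist1h2ac, Hist1h2ad, Hist1h2ae, Hist1h2ag, Hist1h2ah and Hist1h2ai, had similar reads. They ranged from 27 to 51 in the normal control, 41 to 63 in the normal exercise library, 268 to 311 in the cancer control and 214 to 251 in the cancer exercise library. In the order of the libraries, Hist1h2ab had 48, 44, 294 and 251 reads, Hist1h2ac 51, 44, 311 and 217, Hist1h2ad 27, 63, 308 and 226, and Hist1h2ae 51, 41, 306 and 223. Hist1h2ag had 49, 49, 303 and 226, Hist1h2ah 35, 48, 268 and 214, and Hist1h2ai 41, 51, 298 and 227. In all 7 both tumor libraries were above both libraries without tumor. The log2 read ratios of the cancer control to the normal control lay between 2.95 (2.52 to 3.41) for Hist1h2ae and 3.88 (3.31 to 4.50) for Hist1h2ad, with Hist1h2ab, Hist1h2ac, Hist1h2ag, Hist1h2ah and Hist1h2ai at 2.98, 2.98, 2.995, 3.30 and 3.23. Hist1h2ak with 21, 29, 134 and 123 reads, Hist1h2af with 16, 21, 116 and 94, and Hist1h2an with 14, 18, 122 and 92 had ratios of 3.04, 3.23 and 3.49. In Hist3h2a, a gene of a small cluster on chromosome 11 whose annotation overlaps Trim17, the reads were 9, 13, 96 and 50 and the difference was 3.64. Coding sequences of 2 H2A members were identical in a median of 96.7% of positions, which leaves the division of reads among such copies uncertain. Summed over the 13 H2A genes of cluster 1, which depends less on that division, the reads were 1100 in the normal control and 10922 in the cancer control, and the log2 ratio was 3.68 (3.59 to 3.77). Without Hist1h2ap and Hist1h2ao it was 3.16 (3.001 to 3.33).

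The H2A genes of cluster 2, on chromosome 3, gave another picture. Hist2h2aa1 and Hist2h2aa2, whose shorter transcript is wholly contained in the other's 75-base stretches, had identical values in every library and count as 1 measurement, with 594, 566, 435 and 961 reads. Their log2 values were 8.98, 9.03, 8.90 and 10.14, similar in 3 libraries and highest in the cancer exercise library. The log2 read ratio for the tumor effect without exercise was -0.08 (-0.26 to 0.10). Hist2h2ac, with 14, 7, 15 and 14 reads, had a ratio of 0.47 (-0.69 to 1.63), which was not distinguishable from no difference at this depth. Hist2h2ab, with 1, 3, 6 and 1 reads, had a ratio of 2.95, with an interval of -0.09 to 8.48 that includes 0.

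**Figure D2:**
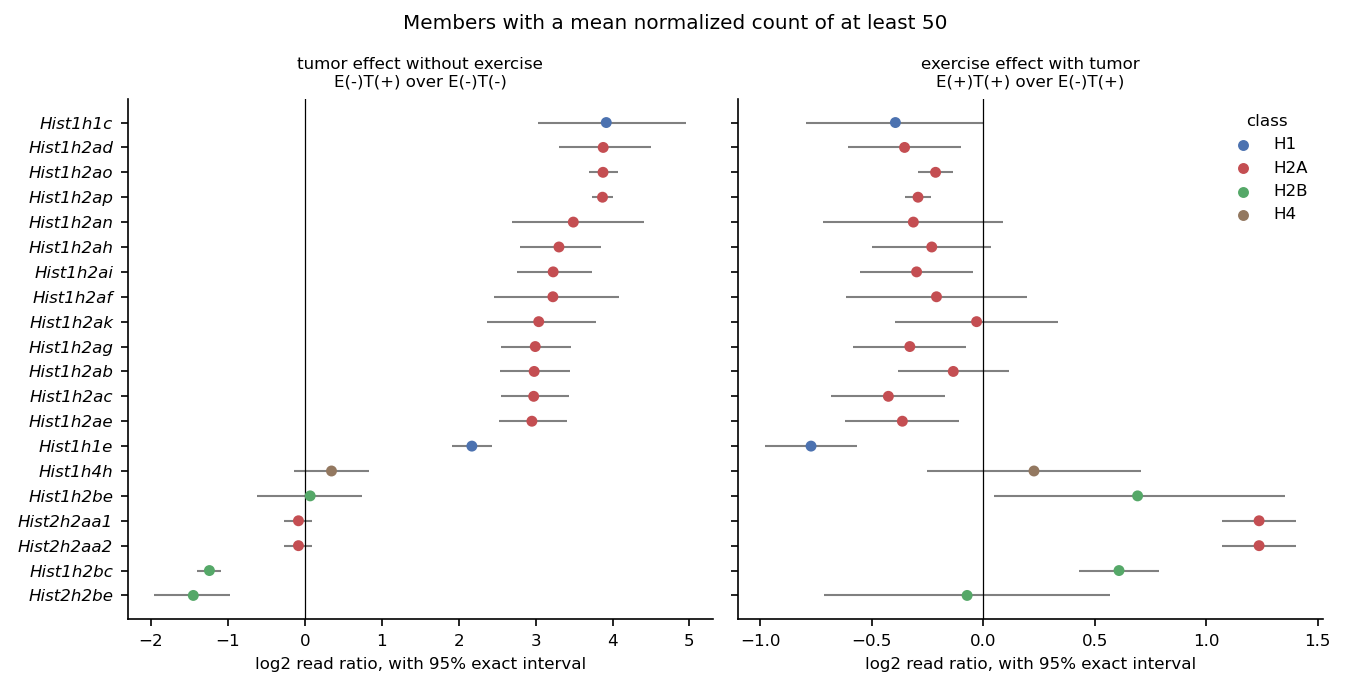
Log2 read ratios of the 20 members with a mean normalized count of at least 50, scaled by library size, with bars for the exact 95% interval of counting error and colors for the histone class. In the left panel 14 members lie at 2.17 or more, 2 H2B genes below -1, and in the right panel only Hist2h2aa1 and Hist2h2aa2 lie beyond 1.

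H1 genes encode the linker histones that bind between nucleosomes. Hist1h1e, the H1 gene with the most reads, had 156, 114, 545 and 299 reads in the 4 libraries, normal control first, with log2 values of 7.06, 6.72, 9.22 and 8.45. Both tumor libraries were above both libraries without tumor, and the log2 read ratio for the tumor effect without exercise was 2.17 (1.91 to 2.44). Its annotated 3' end overlaps the first part of Hist1h2be on the same strand, so these rows may share reads. Hist1h1c had 11, 25, 129 and 92 reads and a ratio of 3.92 (3.03 to 4.96). Hist1h1d, with 1, 8, 105 and 38 reads, had a ratio of 7.08 (4.57 to 12.4), and its interval is wide because of the single read in the normal control. Hist1h1b had no read in either library without tumor and 65 and 25 in the tumor libraries. Its level in the cancer control was 27.9-fold the 3-read floor of the normal control. The exact lower limit of this log2 ratio was 4.46. The summed reads of the 6 H1 genes were 168, 152, 846 and 463, a log2 ratio of 2.70 (2.46 to 2.95).

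The H2B genes, which encode the partner of H2A in the nucleosome, did not move as one. Hist1h2bc had 1334, 1948, 438 and 626 reads, with log2 values of 10.15, 10.81, 8.91 and 9.52. Both tumor libraries were below both libraries without tumor, and the log2 read ratio of the cancer control to the normal control was -1.24 (-1.40 to -1.08). Hist2h2be had 162, 164, 46 and 41 reads and a ratio of -1.45 (-1.96 to -0.97). These were the only 2 of the 68 members whose 2 tumor libraries were both lower, whereas for 52 members both were higher. The 13 members with no read in either library without tumor could not be lower here. No share of all rows was computed for this count. Hist1h2be, with 43, 73, 35 and 53 reads, did not separate the libraries by tumor, at 0.07 (-0.62 to 0.75). The remaining H2B genes had few reads and were mostly higher in the cancer control. Hist1h2bk had 2 and 37 reads in the normal control and the cancer control and a difference of 3.99, and Hist1h2bg, Hist2h2bb, Hist1h2bl, Hist1h2bn and Hist1h2br differed by 3.14, 2.89, 2.98, 2.86 and 2.55. Hist1h2bj and Hist1h2bq differed by 1.32 and 1.25 with 15 and 14 reads in the cancer control. For the class as a whole 14 of 19 genes were higher by 2-fold (23.6% of all rows) and 3 lower (24.8% of all rows), yet the summed reads were 1577 and 719, a log2 ratio of -0.77 (-0.90 to -0.64), and Hist1h2bc held 1334 of the first and 438 of the second. Without Hist1h2bc and Hist2h2be the summed ratio was 1.90 (1.53 to 2.29).

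H3 and H4 genes, which encode the other two core histones, were read at low depth. Hist1h3c, the H3 gene with the highest mean, had 5, 0, 12 and 16 reads, with log2 values of 2.37, 0, 3.82 and 4.29. Hist1h3e had no read without tumor and 15 in the cancer control, 6.45-fold the floor of the normal control. Hist2h3c1 and Hist2h3c2 had identical values in all libraries, 1, 2, 11 and 4 reads, and a difference of 2.87. All 12 H3 genes were higher in the cancer control by 2-fold or more on the log2 scale, where 23.6% of all rows were, and 9 of them with an interval that excluded 0 (17.4% of all rows), but 8 of the 12 had a mean normalized count under 4. No read was found in either library without tumor for 8 of the 12, so that these could only be higher. Hist1h3a and Hist1h3f also had identical values in all libraries, with 0, 0, 2 and 5 reads. Each of these equal pairs may be 1 measurement, and both rows enter the counts of H3 genes. The summed reads of all 12 rows were 7 and 93, a log2 ratio of 4.10 (2.999 to 5.45). This interval treats the repeated reads as separate. Hist1h4h, the H4 gene with the most reads, had 73, 101, 72 and 79 reads and log2 values of 5.98, 6.55, 6.32 and 6.54, which did not separate by tumor (0.35, -0.14 to 0.84). Other H4 genes were higher in the cancer control by 3.43 for Hist1h4n, 3.39 for Hist1h4c, 2.98 for Hist1h4f, 2.11 for Hist1h4i, 1.89 for Hist1h4d and 1.89 for Hist1h4j. Hist1h4m had no read in the normal control and 12 in the cancer control, 5.16-fold the floor. Hist4h4 had 0, 9, 8 and 0 reads, reads being found in the normal exercise library and the cancer control and in neither of the others. Differences of 1.54, 1.53 and 0.91 were found for Hist1h4a, Hist1h4k and Hist1h4b with at most 6 reads in each of the 2 libraries. The summed reads of H4 genes were 111 and 279, a log2 ratio of 1.70 (1.37 to 2.03).

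The members under a mean normalized count of 4 were Hist1h1a and Hist1h1t of class H1, Hist1h2aa and Hist2h2ab of H2A, Hist1h2bb, Hist1h2bm, Hist1h2bh, Hist1h2bf, Hist1h2bp, Hist1h2ba, Hist3h2ba and Hist3h2bb-ps of H2B, Hist2h3b, Hist1h3g, Hist1h3b, Hist1h3i, Hist1h3f, Hist1h3a, Hist1h3h and Hist1h3d of H3, and Hist2h4 of H4. Their rows held between 1 and 14 reads over all 4 libraries, a depth too low to give the size of a difference. Some share most of their sequence with other members, as Hist1h3h does with 93.5% of its 75-base stretches. Reads on such rows do not show which gene the RNA came from. The members under this level still enter the counts of members past 2-fold. For Hist2h4 the cancer control stood at 4.73-fold the floor of the normal control.

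**Figure D3:**
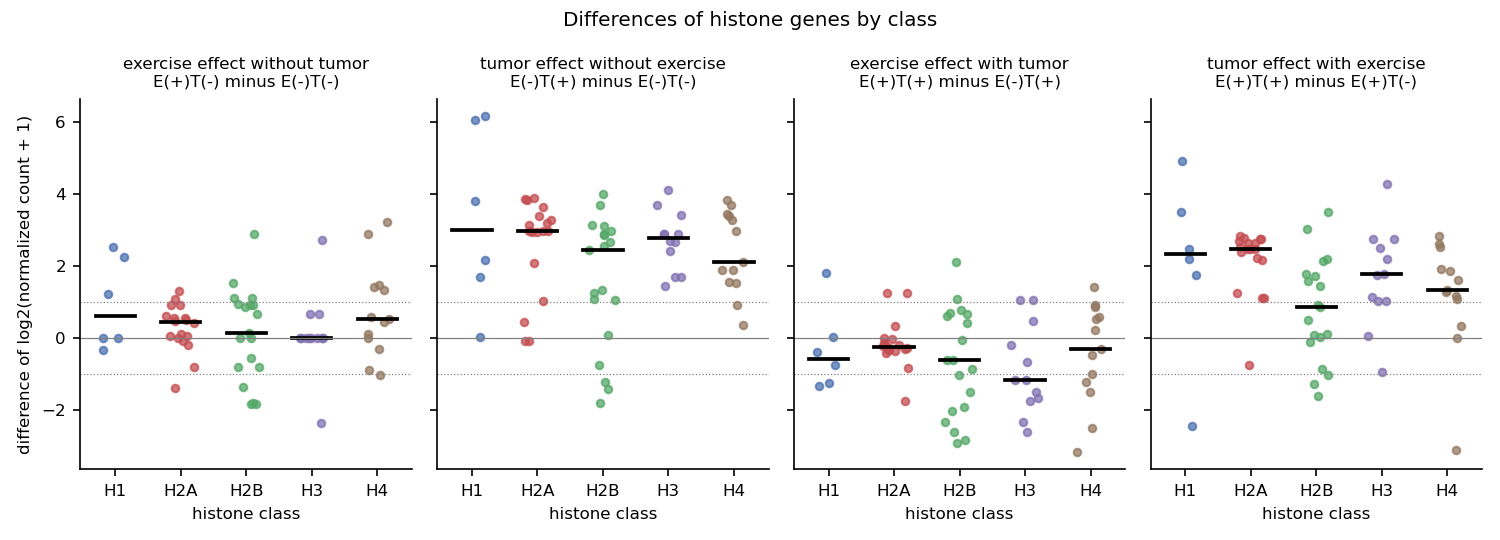
Differences of log2(normalized count + 1) for every member in the 4 comparisons, by histone class, with black bars at the class medians and dotted lines at 2-fold. In the tumor effect without exercise the class medians lie between 2.11 for H4 and 2.98 for H1, and in the exercise effect without tumor between 0 for H3 and 0.61 for H1.

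The tumor effect with exercise compared E(+)T(+) with E(+)T(-). Most members were again higher with tumor, with class medians of the log2 difference between 0.85 for H2B and 2.48 for H2A. By 2-fold or more 50 of 68 members were higher (17.2% of all rows), 11 of them among the 13 with no read in either library without tumor, and 5 lower (13.8% of all rows), and with an interval that excluded 0 the counts were 32 (12.1%) and 3 (10.1%). Of the 47 members with a mean of at least 4, 37 were higher (14.9% of such rows) and 4 lower (13%). The median difference was 1.76, against 0.02 over all rows. Each library of this comparison also enters an exercise comparison below. For Hist1h2ap the log2 read ratio was 2.68 (2.57 to 2.79), and for Hist1h2ao 2.76 (2.61 to 2.91). The other cluster 1 H2A genes with a mean of at least 50 had ratios between 2.19 (1.78 to 2.62) for Hist1h2ad and 2.86 (2.39 to 3.36) for Hist1h2ab. Hist2h2aa1 and Hist2h2aa2 were higher in this comparison, at 1.11 (0.96 to 1.26), but at 0.70 when scaled by library totals alone. Hist2h2ac was higher by a difference of 1.23 with 14 reads against 7.

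In the same comparison Hist1h1e had a log2 read ratio of 1.74 (1.42 to 2.06), Hist1h1c of 2.23 (1.58 to 2.93) and Hist1h1d of 2.60 (1.47 to 3.91). Hist1h1b stood at 10.6-fold the floor of the normal exercise library. Hist1h2bc was lower, at -1.29 (-1.42 to -1.16), as was Hist2h2be, at -1.65 (-2.18 to -1.15). Hist1h2be and Hist1h4h had ratios of -0.11 (-0.65 to 0.42) and -0.01 (-0.45 to 0.43). Hist1h3c had no read in the normal exercise library and 16 in the cancer exercise library, 6.79-fold the floor. Of the class sums, H2A had a ratio of 2.23 (2.17 to 2.29), H1 of 1.95 (1.69 to 2.23), H3 of 2.61 (1.61 to 3.76), H4 of 0.86 (0.58 to 1.15), or 0.45 under library totals alone, and H2B of -1.09 (-1.21 to -0.98). Without Hist1h2bc and Hist2h2be the H2B sum had a ratio of 0.50 (0.18 to 0.83), or 0.09 under library totals alone.

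In the lungs without tumor, the exercise effect compared E(+)T(-) with E(-)T(-). Hist1h2bc, Hist1h2ap and Hist1h2ao had moderately more reads after exercise and Hist2h2aa1 about as many. By 2-fold or more 15 of 68 members were higher, where 7.2% of all rows were, and 7 were lower, where 7.07% were. With an interval that excluded 0 these counts were 9 (3.42% of all rows) and 0 (3.38% of all rows). Among the 47 members with a mean of at least 4, 12 were higher (5.28% of such rows) and 3 lower (4.7%). The median difference was 0.12, with the median of all rows at 0. It includes the 13 members with no read in either library, which are fixed at 0, and was 0.61 over the 38 members for which a ratio or a bound could be given and 0.48 over those with a mean of at least 4. Over all 68 it was 0.0089 under totals without hemoglobin and Rn45s. Hist1h2ap had a log2 read ratio of 0.90 (0.74 to 1.06), Hist1h2ao of 0.91 (0.68 to 1.14) and Hist1h2bc of 0.66 (0.56 to 0.76), all inside 2-fold. Hist2h2aa1 was at 0.04 (-0.13 to 0.21), Hist1h1e at -0.34 (-0.70 to 0.02) and Hist2h2be at 0.13 (-0.19 to 0.45). For Hist1h4h the ratio was 0.58 (0.13 to 1.03), and for Hist1h2be 0.88 (0.31 to 1.46).

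The 9 members past 2-fold whose interval excluded 0 were thinly covered. Among them Hist1h2ad had 27 and 63 reads (1.33, 0.66 to 2.04), Hist1h2br 4 and 33 (3.16, 1.67 to 5.12), Hist1h1c 11 and 25 (1.30, 0.22 to 2.47) and Hist1h4i 10 and 27 (1.54, 0.45 to 2.76). Hist1h1d had 1 and 8 reads, Hist2h2bb 5 and 15, Hist1h4m 0 and 7, Hist4h4 0 and 9, and Hist1h3g 0 and 6. The summed reads of all members were 4175 and 5446, a log2 ratio of 0.50 (0.44 to 0.55). Next, 1.47% of each level in the cancer control was taken out of the normal exercise library. That percentage is the median over the 9 genes described with the libraries, which ranged from 0.642% to 2.18%. No other percentage was tried, and where those reads came from was not tested. After this step 15 members were higher by 2-fold and 8 lower, against 15 and 7 before it. As deposited, 7.2% of all rows were higher and 7.07% lower, and these shares were not computed after the step. The difference of Hist1h1d was then 1.92 in place of 2.25, and that of Hist1h2ap 0.72 in place of 0.90. The 5 proliferation markers were also all higher in the normal exercise library, with a median difference of 1.11 and summed normalized counts of 281 and 599. Of the other marker lists, 2 of 7 erythroid, 3 of 7 early neutrophil and 1 of 4 T cell markers were higher by 2-fold and 1 of each list lower. No epithelial, endothelial or B cell marker passed 2-fold. Among all rows 7.2% were higher and 7.07% lower. The part of these markers' cell types in the result was not tested.

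For the lungs with tumor, the exercise effect compared E(+)T(+) with E(-)T(+), which asks whether tumor-bearing lungs differed with exercise. The summed reads of the cluster 1 H2A genes were lower after exercise but inside 2-fold, at a log2 ratio of -0.27. Hist2h2aa1 and Hist2h2aa2 were higher by 2-fold. Of the 6 H1 genes 1 was higher by 2-fold and 2 lower, where 24.4% of all rows were higher and 20.8% lower. By 2-fold or more 8 of 68 members were higher, where 24.4% of all rows were, and 23 were lower, where 20.8% were. The 13 members with no read in either library without tumor entered the set through the tumor libraries alone. They held 4 of the 8 higher and 8 of the 23 lower, which leaves 4 higher and 15 lower of the other 55. When the interval also had to exclude 0, 3 of the 68 were higher (19% of all rows) and 12 lower (14.3% of all rows). Hist2h2aa1 and Hist2h2aa2, among the 3, are the same measurement. The share of lower members, 17.6%, was near that of all rows. Of the 47 members with a mean of at least 4, 3 were higher (24.3% of such rows) and 13 lower (17.7%). Scaling by library totals alone, in which hemoglobin reads count, gave 2 higher (16.4% of all rows) and 31 lower (36% of all rows) and put the median of all rows with a mean of at least 4 at -0.59. The median difference of the members was -0.34, against 0.01 over all rows.

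Hist1h2ap had a log2 read ratio of -0.29 (-0.35 to -0.23) for exercise with tumor and Hist1h2ao of -0.21 (-0.29 to -0.13), both inside 2-fold, and at -0.90 and -0.82 under library totals alone. Hist1h1e was at -0.77 (-0.98 to -0.57), or -1.38 and so past 2-fold under library totals alone, and Hist1h1d and Hist1h1b at -1.37 (-1.95 to -0.82) and -1.28 (-2.01 to -0.60). Hist2h2aa1 and Hist2h2aa2, with 435 and 961 reads, were at 1.24 (1.07 to 1.40), and at 0.63 under library totals alone. Hist1h2bc, with 438 and 626 reads, was at 0.61 (0.43 to 0.79), which came to 0.00018 under library totals alone. Hist1h2be was at 0.69 (0.05 to 1.35), or 0.08 under library totals alone, Hist2h2be at -0.07 (-0.72 to 0.57) and Hist1h4h at 0.23 (-0.25 to 0.71), which turned to -0.38 under library totals alone. Of the members with fewer reads, Hist1h2bk (37 and 6 reads), Hist1h2bj (15 and 1), Hist1h2bl (12 and 2) and Hist1h3e (15 and 2) differed by -2.35, -2.93, -2.04 and -2.34. Hist1h4d, Hist1h4f and Hist1h4j differed by -1.003, -1.23 and -1.51, while Hist1h4b, with 5 and 14 reads, was higher by 1.40.

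The summed reads of all members in this comparison were 13846 and 12070, a log2 ratio of -0.10 (-0.14 to -0.07), or -0.18 (-0.21 to -0.14) with each pair of equal rows counted once. Under library totals alone the ratio was -0.71. Without Hist1h2ao, Hist1h2ap, Hist2h2aa2 and Hist2h3c2 it was -0.038 (-0.096 to 0.021), which includes 0. H1 stood at -0.78 (-0.94 to -0.61), H2A at -0.09 (-0.13 to -0.05) with both rows of Hist2h2aa1 and Hist2h2aa2 and at -0.27 (-0.31 to -0.23) for cluster 1 alone, H3 at -0.86 (-1.39 to -0.34) and H4 at -0.06 (-0.32 to 0.19). Under library totals alone H1 and H3 stood past 2-fold, at -1.38 and -1.47, H2A at -0.70, cluster 1 H2A at -0.88 and H4 at -0.67. H2B stood at 0.30 (0.16 to 0.45), which turned to -0.30 under library totals alone and to -0.42 (-0.71 to -0.12) without Hist1h2bc and Hist2h2be. All 6 epithelial and all 3 endothelial markers were higher in the cancer exercise library than in the cancer control, all 7 erythroid markers and 5 of 7 early neutrophil markers were higher by 2-fold, whereas the early neutrophil marker Ltf was lower by 2-fold, and 4 of 5 proliferation markers were lower by 2-fold. In this comparison 24.4% of all rows were higher by 2-fold and 20.8% lower. Summed normalized counts were 587 and 19763 for the erythroid and 2032 and 4992 for the early neutrophil markers. The B cell markers Ms4a1 and Cd79a had no read in the cancer control, and the 4 B cell and 4 T cell markers were all higher by 2-fold in the cancer exercise library, with sums of 12.3 and 227 and of 63.9 and 370. The part of these cell types in the histone values was not tested.

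Divergent pairs set an H2A beside an H2B gene with a shared upstream region. In 13 pairs the starts lay within 500 bases of each other and the genes ran apart. In 9 of them both genes had a mean normalized count of at least 4. Among these 9 in the tumor effect without exercise, 8 H2A genes were higher by 2-fold (20.6% of such rows) and none lower, and of their H2B partners 7 were higher and 2 lower (25.7% of such rows). Most H2B partners had few reads, so the sizes of the differences within a pair were not compared. In the pair whose shared region is printed above, with starts 251 bases apart, Hist1h2ac had 51, 44, 311 and 217 reads and Hist1h2bc 1334, 1948, 438 and 626. The first was higher by 2.95 and the second lower by 1.24 on the log2 scale in the cancer control against the normal control. Hist1h2ac is among the cluster 1 H2A copies with similar reads described above. The division of reads among those copies is uncertain, so its values may include reads of other copies. The pair Hist2h2ac and Hist2h2be, 239 bases apart, differed by 0.44 and -1.43. Hist1h2ap and Hist1h2br, 236 bases apart, were both higher, by 3.87 and 2.55. In the pair Hist1h2aa and Hist1h2ba the H2B gene was lower on 3 reads against 0, which is no measurement of a decrease. With exercise, 9 of these 9 H2A genes were higher in the tumor library by 2-fold (14.9% of such rows), and of the H2B genes 4 were higher and 3 lower (13%).

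**Figure D4:**
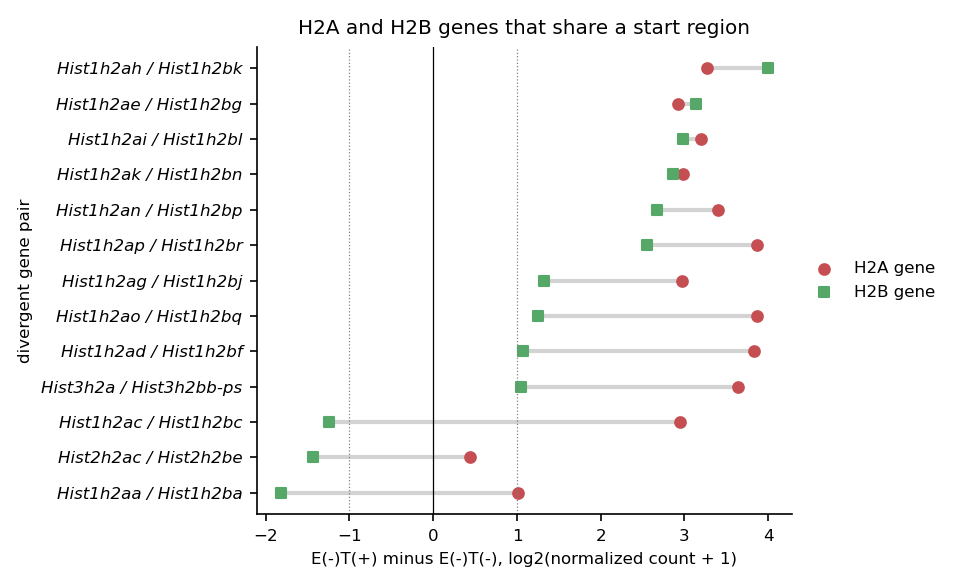
Difference of log2(normalized count + 1) between the cancer control and the normal control for the H2A gene (circles) and the H2B gene (squares) of each of 13 divergent pairs, 4 of them with a gene under a mean normalized count of 4, joined by a grey line, with dotted lines at 2-fold. The markers lie on opposite sides of 0 in the 3 pairs at the bottom, with Hist1h2ac at 2.95 and Hist1h2bc at -1.24.

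The annotated end of the transcript was set against the tumor effect without exercise. Short ends include models without any 3' UTR, so the split is one of annotation and not of measured transcript ends. Of the 42 short-end members 36 were higher by 2-fold and 1 lower, with a median difference of 2.89, and of the 26 long-end members 21 were higher and 2 lower, with a median of 2.67, where 23.6% of all rows were higher and 24.8% lower. The summed reads gave a log2 ratio of 2.70 (2.63 to 2.76) for short ends and 0.47 (0.37 to 0.56) for long ends, and 3.06 and 0.46 with each pair of equal rows counted once. In the tumor effect with exercise these ratios were 2.18 (2.12 to 2.24) and -0.33 (-0.42 to -0.24), so that the long-end sum was then lower with tumor. Hist1h2bc had 1334 of the 1810 long-end reads in the normal control and 438 of 1939 in the cancer control.

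Replication-independent histone genes encode variants that are mostly made outside S phase as well, from polyadenylated mRNAs. The list also holds Cenpa, for the centromeric H3 variant, which is made late in the cell cycle, and H2afx, which is known to give a stem-loop mRNA too. Of the 18 listed, 13 had reads. In the cancer control against the normal control, 8 were higher by 2-fold and 1 lower (23.6% and 24.8% of all rows), with a median difference of 1.53, and Cenpa at 4.06 and H2afx at 1.84 are among the 8. H3f3b and H2afz, for the variants H3.3 and H2A.Z, were higher by 1.53 and 1.08, whereas H2afv differed by 0.10 and H2afy, for macroH2A, by 0.66. In the exercise effect without tumor none of the 13 passed 2-fold (median -0.01), where 7.2% of all rows were higher and 7.07% lower. In the exercise effect with tumor 2 were higher and 5 lower (median -0.35), against 24.4% and 20.8% of all rows. In the tumor effect with exercise 3 were higher and none lower (median 0.60), against 17.2% and 13.8% of all rows, and 3 of 13 is near that share.

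DNA replication genes, whose products copy DNA in the phase in which these histones are made, were higher by 2-fold in 33 of 37 cases and lower by 2-fold in none in the cancer control against the normal control, with a median of 2.42, against 23.6% and 24.8% of all rows. Lig1, Mcm7 and Rrm1 differed by 2.95, 2.47 and 2.76. In the exercise effect with tumor, 25 of 37 were lower by 2-fold (20.8% of all rows) and none higher (24.4% of all rows), with a median of -1.19, while the histone members stood at -0.34. In the exercise effect without tumor their median was -0.05, with 1 higher and 2 lower (7.2% and 7.07% of all rows), and in the tumor effect with exercise 0.99, with 18 higher and 1 lower (17.2% and 13.8%). Whether the lists differ was not tested.

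Histone chaperones, which carry and deposit histones, differed by a median of 1.15 between the cancer control and the normal control, where 15 of 25 genes were higher by 2-fold and none lower (23.6% and 24.8% of all rows). Npm1, Rbbp4 and Set differed by 2.25, 1.18 and 1.75, and Atrx by -0.66. With tumor, exercise gave a median of -0.78 with 10 lower and none higher (20.8% and 24.4% of all rows). Without tumor it gave 0.16 with 1 higher and none lower (7.2% and 7.07%). The tumor effect with exercise had a median of 0.14 with 5 higher and none lower, and 5 of 25 is near the 17.2% of all rows that were higher, while 13.8% were lower. Of 29 genes for histone mRNA processing and transcription, 6 were higher and none lower in the cancer control against the normal control, and their median was 0.43. The 6 are 20.7% of the list, near the 23.6% of all rows. Ybx1, Papola and Srrt, those with the highest mean levels, differed by -0.26, -0.30 and 0.46. Slbp, named here for its role and not by its level, had 105, 106, 203 and 95 reads and differed by 1.31 in that comparison. Medians of the list were 0.10 for exercise without tumor, with 0 higher and 1 lower, -0.49 for exercise with tumor, with 0 higher and 6 lower, and -0.02 for tumor with exercise, with 1 higher and 3 lower. The 6 lower, 20.7% of the list, are near the 20.8% of all rows, and the 3 lower near the 13.8% of all rows in that comparison.

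**Figure D5:**
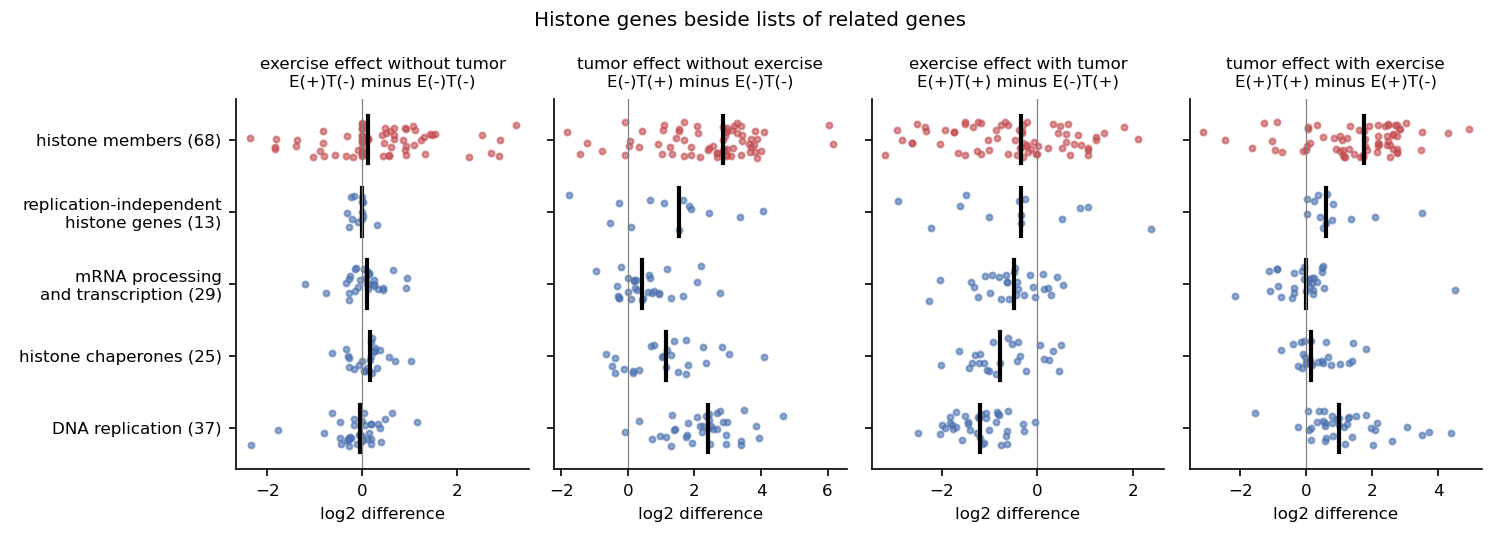
Log2 differences of the 68 members and of 4 lists of related genes with reads (numbers of genes in brackets) in the 4 comparisons, 1 point per gene, with black bars at the medians. In the exercise effect with tumor the DNA replication genes have their median at -1.19 and the histone members at -0.34.

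In the tumor effect without exercise the cell type markers moved beside the histone genes, counted by 2-fold or more, where 23.6% of all rows were higher and 24.8% lower. All 5 proliferation markers were higher, with a median difference of 4.96, all 6 epithelial markers lower (median -2.35), all 3 endothelial markers lower (median -2.73) and all 7 early neutrophil markers higher (median 2.91, of which Elane and Ctsg had no read in the normal control). Erythroid markers were lower in 5 of 7 cases and higher in 1, with a median of -1.91, and 4 of 4 B cell and 3 of 4 T cell markers were lower. In the tumor effect with exercise all 5 proliferation, 6 of 7 erythroid and 7 of 7 early neutrophil markers were higher by 2-fold, no epithelial or endothelial marker passed it, and 2 of 4 B cell and 1 of 4 T cell markers were lower by 2-fold, against 17.2% of all rows higher and 13.8% lower. Their part in the histone values was not tested.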

How the data were processed

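Total lung RNA of 4 groups was sequenced by the authors with an oligo-dT 3' kit (QuantSeq 3' mRNA-Seq), 1 library per group. Per the methods and processing notes, reads were aligned with Bowtie2 to mm10, counted with bedtools and normalized by quantiles. Tool versions, the gene models and whether strand was used were not given in the sources used here, so overlapping, antisense and near-identical genes may share or split reads. The deposited values were log2 of the normalized count plus 1, at 3 decimals.

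Whole reads were recovered by inverting the negative binomial quantile adjustment with a fitted dispersion of 0.372. All values (100%) came back within 0.001, and 94.6% were resolved to 1 read. On simulated data the step returned 100% of the values to the exact read over the 18115 rows with under 500 reads in every library, and came within 0.0698% of the true reads in the other 5167 rows. No count model was applied. Differences were taken between deposited log2 values. Read ratios used the effective library sizes, with exact (Clopper-Pearson) 95% intervals, and a count of 0 was set to a floor of 3 reads per library for bounds. These cover counting error only, and PCR reads without molecular identifiers are not independent molecules.

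Members with a mean normalized count of at least 50, and the highest of each class, were named with their reads in all 4 libraries. Those with at least 4 were named where 2-fold in any comparison, and the others by name and count. From related lists, the genes with the highest mean levels were named. Members and lists were chosen with earlier results of these data known. Alternatives were other scalings, a pseudocount of 4 and filters on low values. Annotation came from GENCODE M21 and RefSeq GRCm38.p6. Python 3.11.15, numpy 2.4.6, scipy 1.17.1, pandas 2.3.3 and matplotlib 3.10.9 were used.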

Additional observations from a re-analysis of the deposited data

Results flagged for a closer look

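For 2 members the effect of a treatment passed 2-fold in opposite directions with and without the other treatment, with exact intervals of the read ratio that excluded 0 in both settings. Hist1h1d, a linker histone gene with 1, 8, 105 and 38 reads in the libraries of normal control, normal exercise, cancer control and, last, cancer exercise, had an exercise effect of 2.25 without tumor and of -1.35 with tumor on the deposited log2 scale. Hist4h4, an H4 gene on chromosome 6 with 0, 9, 8 and 0 reads, had exercise effects of 3.22 and -3.18, and tumor effects of 3.28 without and -3.13 with exercise. Each setting rests on 1 library per group, and the difference between the settings was not tested.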

How the results depend on the processing

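The summed log2 ratios over all members, 0.50, 2.10, -0.10 and 1.496 for exercise without tumor, tumor without exercise, exercise with tumor and tumor with exercise, kept their direction under the alternatives run. Without a replicate in any group, no library could be left out. No paired analysis was possible because each group had 1 library. Limiting the members to the 26 with a mean normalized count of at least 20 left 20 higher and 2 lower in the tumor effect without exercise (19.4% and 23.8% of such rows), 20 and 2 in the tumor effect with exercise (12.2% and 10.9%), 2 and 2 in the exercise effect with tumor (22.5% and 16.6%), and 6 and 0 in the exercise effect without tumor (2.9% and 1.99%), since fewer members were counted. A minimum of 4 gave 3 lower for exercise without tumor (4.7% of such rows), and 3 higher and 13 lower for exercise with tumor (24.3% and 17.7%), and a minimum of 10 reads in all gave 4 lower for the first (5.53% of such rows) and 5 higher for the second (24.5%). A pseudocount of 4 gave 1 lower for exercise without tumor (3.6% of all rows) and 4 higher for exercise with tumor (19.9%), where library totals alone gave 2 higher (16.4%). In the order above the summed log2 ratios were 0.41, 2.21, -0.71 and 1.08 under library totals alone and 0.38, 1.95, -0.14 and 1.42 under totals without hemoglobin and Rn45s. Leaving out Hist1h2ao, Hist1h2ap, Hist2h2aa2 and Hist2h3c2, a choice made after seeing the data, gave 1.17, -0.038 (-0.096 to 0.021, which includes 0) and 0.68 for the last 3. The median of all rows with a mean of at least 4 stood at -0.59 and -0.41 under library totals alone for exercise with tumor and tumor with exercise, and at -0.11 and -0.18 without hemoglobin and Rn45s for exercise without tumor and tumor without exercise. Of 113 differences of named members past 2-fold, 102 stayed past it under library totals alone, 109 without hemoglobin, 113 under median of ratios and 91 with a pseudocount of 4. Low reads in H3 and H4 limit what can be said of single genes there.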
